A study of Mus musculus with 5 samples.

Results

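The genes described here were 46 genes whose RNA is known to accumulate while a cell copies its DNA or divides, 19 genes of S phase and 27 genes of G2 phase and mitosis (G2/M). They were taken by symbol from the 27998 genes of the count matrices, and all 46 were found there, on 16 chromosomes. Their levels were compared across epithelial, fibroblast and immune barcodes of 5 mouse mammary gland libraries. Within the list, 14 S-phase and 21 G2/M genes with little known use outside the cycle are called core genes. The other members were Pcna, Rrm1, Dut, Tipin, Slbp, Tacc3, Hmgb2, Stmn1, Tubb4b, Cks2 and Cks1b, whose RNA is also known from cells that do not divide.

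A cell that enters the cycle first makes the proteins that license and fire origins of replication, unwind DNA and supply nucleotides, and their genes are known as targets of E2F transcription factors. Later it makes the mitotic cyclins, kinases, kinesins and centromere proteins, whose genes are known to be activated together in G2 through CHR and CCAAT elements in their promoters. In the mammary gland, estrogen and progesterone are known to drive division of luminal and basal epithelial cells, and removal of the ovaries is known to leave the epithelium largely at rest.

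The mice were ovariectomized BALB/cj females aged 30 weeks at collection, and treatment began 20 weeks after ovariectomy and lasted 1 week. OVX mice received the DMSO vehicle, OVX_E2 mice 17β-estradiol at 1 µg per animal by daily intraperitoneal injection, and OVX_E2_P4 mice the same estradiol with progesterone at 0.1 mg per animal. The OVX_E2_PBDE and OVX_E2_P4_PBDE mice received these hormones and ate food with polybrominated diphenyl ethers (PBDEs), a class of flame retardants, in which each kg held 7.1 mg of BDE-47, 0.4 mg of BDE-100 and 0.9 mg of BDE-153, whereas the food of the other mice held DMSO. All animals therefore lacked ovarian hormones, the estradiol groups received 1 dose level, and no group received progesterone or the flame retardants without estradiol. The fourth gland was digested after its lymph node had been taken out, red blood cells were lysed, dead cells were depleted with microbeads, and the remaining cells were loaded on the 10x Genomics system, which counts unique molecular identifiers (UMIs), 1 per captured transcript, at the 3′ end of RNA in each barcoded droplet. Each group was 1 library, so no difference between groups could be tested against the spread between animals, and how many mice each library held was not given in the sources used here. Library order is OVX, OVX_E2, OVX_E2_PBDE, OVX_E2_P4 and OVX_E2_P4_PBDE wherever 5 values follow each other.

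Of 14344 barcodes, 14317 passed the filters on genes, UMIs and mitochondrial RNA, with 19982067 to 42012988 UMIs per library. Clusters named from marker genes gave 6274 epithelial barcodes, 346, 1194, 1417, 2002 and 1315 per library, beside 7258 fibroblast and 530 immune barcodes, while 234 endothelial-like barcodes and 21 with markers of more than 1 compartment were set apart. Summed epithelial keratin and adhesion markers stood at 9340 to 12078 CPM (UMIs per 1000000 UMIs of the class) in the epithelial class and 276 to 1053 CPM in fibroblasts, and fibroblast collagen markers at 22088 to 33363 CPM in fibroblasts and 890 to 1911 CPM in the epithelium. Immune barcodes also held fibroblast markers, at 1305 to 9518 CPM. In OVX, 195 of the 346 epithelial barcodes lay in clusters with markers of both luminal lineages, which can hold droplets with more than 1 cell. Free RNA in droplets gives every class a background, for which the luminal keratin Krt18 served as a gauge, since fibroblasts held 1.77% to 8.53% and immune barcodes 3.49% to 18.4% of its epithelial level. In the library names the numbers of the PBDE libraries stand apart from those of the other 3, and whether they were prepared apart is not given in the sources used here. Any such difference cannot be told apart from PBDE exposure. Intervals are exact 95% intervals that cover counting error only. They are too narrow where 1 barcode holds many UMIs, as in OVX epithelium, where a single barcode held 105 of the 222 UMIs of core G2/M genes.

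Promoters of 39 of the 46 members were found in the RefSeq table of the GRCm38.p6 build, as 42 windows from 250 bases before to 50 bases after an annotated start. Those of Tipin, Tpx2, Mcm4, Gins2, Stmn1, Ccna2 and Aurkb were not matched. The letters TTTGAA and TTCGAA (CHR), CCAAT, and TTTCCCGC, TTTCGCGC, TTTGCCGC and TTTGGCGC (E2F) were searched on both strands, and some matches to 1 E2F form overlap a match to another. CHR letters were in 17 of the 23 G2/M windows (73.9%) and 4 of the 19 S-phase windows (21.1%), beside 6316 of all 32851 windows (19.2%). CCAAT was in 20 G2/M (87.0%) and 13 S-phase windows (68.4%), beside 37.4% of all windows. E2F letters were in 7 S-phase windows (36.8%), those of Cdc6, Hells, Mcm3, Mcm5, Mcm6, Mcm7 and Uhrf1, and in 1 G2/M window, that of Cdk1 (4.35%), beside 2.26% of all windows. CHR and CCAAT stood together in 73.9% of the G2/M windows, 15.8% of the S-phase windows and 7.52% of all windows. A match describes the letters only, and the windows were not used to choose the genes.

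The following are the 250 bases before the start of 3 S-phase and 3 G2/M members. They were chosen because they show the contrast in promoter letters between the lists and are core genes named in the comparisons of levels. All 3 S-phase examples hold E2F letters, which were in only 7 of the 19 S-phase windows. Capitals mark matches to any of these letters on either strand. The S-phase promoters are those of Hells at chr19:38930740-38930989 on the plus strand, Mcm5 at chr8:75109259-75109508 on the plus strand and Mcm6 at chr1:128359706-128359955 on the minus strand. The G2/M promoters are those of Cdk1 at chr10:69352913-69353162, Top2a at chr11:99024190-99024439 and Mki67 at chr7:135716380-135716629, all on the minus strand.
Hells: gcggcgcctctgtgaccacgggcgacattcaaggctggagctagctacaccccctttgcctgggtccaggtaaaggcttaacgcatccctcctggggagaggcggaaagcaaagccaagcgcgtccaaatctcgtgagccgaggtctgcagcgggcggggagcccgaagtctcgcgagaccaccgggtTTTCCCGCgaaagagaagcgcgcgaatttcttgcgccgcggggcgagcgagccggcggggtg
Mcm5: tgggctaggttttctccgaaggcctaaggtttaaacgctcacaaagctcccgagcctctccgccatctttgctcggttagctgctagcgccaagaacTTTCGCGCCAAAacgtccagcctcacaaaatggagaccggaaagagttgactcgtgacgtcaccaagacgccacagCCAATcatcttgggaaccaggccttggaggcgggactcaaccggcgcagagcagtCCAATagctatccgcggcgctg
Mcm6: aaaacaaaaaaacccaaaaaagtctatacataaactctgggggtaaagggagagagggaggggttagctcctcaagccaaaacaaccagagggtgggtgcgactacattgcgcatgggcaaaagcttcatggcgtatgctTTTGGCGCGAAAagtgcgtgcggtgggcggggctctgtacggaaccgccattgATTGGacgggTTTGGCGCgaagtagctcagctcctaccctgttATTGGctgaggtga
Cdk1: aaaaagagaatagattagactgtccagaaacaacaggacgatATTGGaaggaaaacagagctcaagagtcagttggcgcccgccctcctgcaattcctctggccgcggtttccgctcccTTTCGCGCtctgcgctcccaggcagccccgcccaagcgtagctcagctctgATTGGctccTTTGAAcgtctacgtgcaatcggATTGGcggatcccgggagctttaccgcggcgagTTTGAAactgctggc
Top2a: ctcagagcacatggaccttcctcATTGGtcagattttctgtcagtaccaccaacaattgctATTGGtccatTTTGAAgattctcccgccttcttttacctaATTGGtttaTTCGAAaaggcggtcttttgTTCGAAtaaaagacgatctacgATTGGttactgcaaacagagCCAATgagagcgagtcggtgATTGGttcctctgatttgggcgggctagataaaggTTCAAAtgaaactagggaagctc
Mki67: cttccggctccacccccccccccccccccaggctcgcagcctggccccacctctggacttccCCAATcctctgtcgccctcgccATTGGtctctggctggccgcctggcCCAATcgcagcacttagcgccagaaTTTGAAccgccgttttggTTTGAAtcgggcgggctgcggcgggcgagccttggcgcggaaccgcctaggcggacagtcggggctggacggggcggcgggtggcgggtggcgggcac

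Hells, a chromatin remodeler of replicating DNA, showed 1 E2F match 62 bases before the start and neither CHR nor CCAAT letters. The promoters of Mcm5 and Mcm6, subunits of the replicative helicase, held E2F matches and CCAAT letters and no CHR letters. Those of Top2a, which untangles sister chromatids, and Mki67, a coat of mitotic chromosomes, held CHR and CCAAT letters and no E2F letters, whereas that of Cdk1, the mitotic kinase, held all 3 kinds.

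In the epithelium the summed level of both lists was lowest in OVX and highest in OVX_E2. The S-phase genes together stood at 191, 379, 205, 280 and 216 CPM. The G2/M genes stood at 475, 904, 518, 809 and 524 CPM. Both PBDE libraries were thus lower than the library with the same hormones and no PBDE, and above OVX. The core genes spread the libraries further apart. Core S-phase genes stood at 59.2, 170, 81.6, 111 and 86.1 CPM and core G2/M genes at 41.6, 231, 96.9, 192 and 92.7 CPM. In fibroblasts the sums over all members were flatter, at 238, 210, 171, 208 and 186 CPM for S-phase genes and 203, 204, 165, 224 and 221 CPM for G2/M genes. Core G2/M genes of fibroblasts were low but less flat, at 10.3 CPM in OVX and 19.2 CPM in OVX_E2. The immune class had the highest sums in each library, at 505, 870, 479, 476 and 677 CPM for S-phase genes and 1451, 3507, 1371, 1888 and 2165 CPM for G2/M genes. Within a library the G2/M sum of the epithelium was 2.34 to 4.44 times that of fibroblasts (median 3.15), and its S-phase sum 0.802 to 1.81 times (median 1.20). Against immune barcodes the medians were 0.327 for G2/M and 0.427 for S-phase genes. The G2/M excess over fibroblasts depended on the list. Core G2/M genes had a median of 7.50. A wider list of 44 G2/M genes that held none of the members had a median of 0.979, from 0.741 in OVX to 1.37 in OVX_E2. On this wider list the epithelium of OVX, at 1127 CPM, was not lowest. OVX_E2_PBDE stood at 1092 CPM and OVX_E2_P4_PBDE at 1110 CPM. In sums over a class, more dividing cells and more of this RNA in each dividing cell cannot be told apart. Barcodes were also counted, but a barcode with more of this RNA passes a UMI limit more easily, so the counts do not separate them fully.

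**Figure D1:**
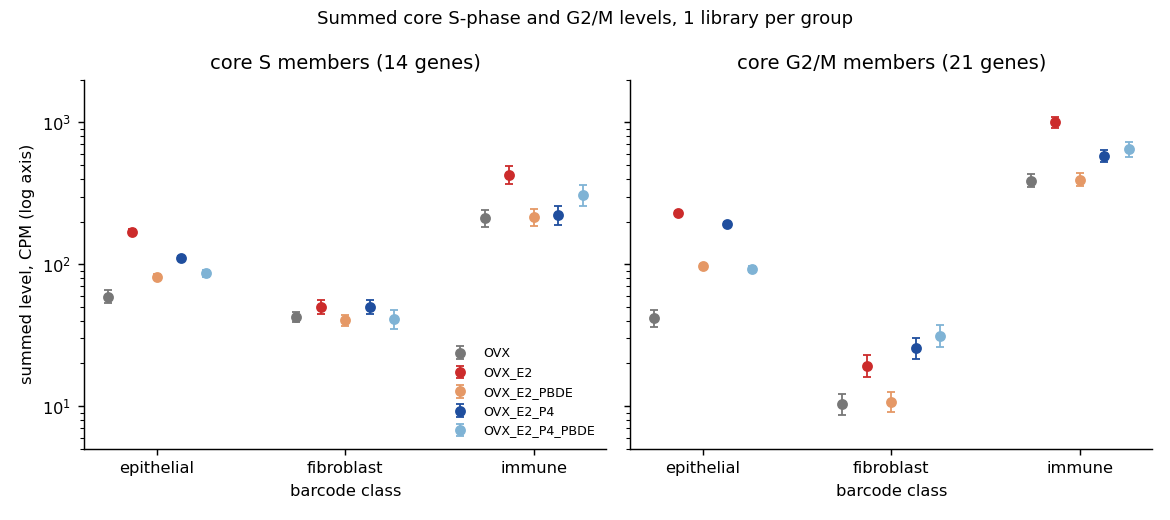
Summed level of the 14 core S-phase genes (left) and the 21 core G2/M genes (right) in epithelial, fibroblast and immune barcodes of the 5 libraries, in CPM on a log axis; points are sums over all barcodes of a class and bars are exact 95% Poisson intervals. In the epithelium OVX_E2 is highest (170 and 231 CPM) and OVX lowest (59.2 and 41.6 CPM), fibroblasts lie lowest of the classes in both panels, and immune barcodes lie highest.

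The first comparison asked how estradiol alone altered these genes in glands without ovarian hormones. Epithelial S-phase RNA was 1.99-fold higher in OVX_E2 than in OVX (1.86 to 2.12) and G2/M RNA 1.90-fold higher (1.83 to 1.98), while core S-phase genes were 2.88-fold (2.56 to 3.24) and core G2/M genes 5.55-fold higher (4.85 to 6.37). Without the 5 barcodes richest in core genes in each library the core G2/M ratio was 12.9 (10.3 to 16.3) and the core S-phase ratio 2.97 (2.62 to 3.36). Those 5 barcodes held 64.4% of the core G2/M UMIs in OVX, of 346 barcodes, and 16.2% in OVX_E2, of 1194. Leaving them out therefore took more from OVX and was bound to raise this ratio. Among genes that reached 50 UMIs in the compared libraries together, 13 of 19 S-phase and 21 of 24 G2/M members were more than 2-fold higher in OVX_E2 and 0 were more than 2-fold lower, beside 3.15% higher and 5.26% lower over all 11403 such genes. Members with few UMIs in OVX passed that minimum through OVX_E2 alone. Of the 11 members with at least 50 epithelial UMIs in every library, 3 of 6 S-phase (Gins2, Dut and Tipin) and 2 of 5 G2/M members (Stmn1 and Cks2) were past 2-fold. The share over all genes with that minimum was not computed. The median log2 ratio was 1.27 for the S-phase and 2.11 for the G2/M members, and −0.19 over all genes, each computed with 1 UMI added to every count. Of a wider list of the pathway that held none of the 46 members, 19 of 37 S-phase and 23 of 38 G2/M genes were more than 2-fold higher and 0 were more than 2-fold lower. Here too, genes with few UMIs in OVX passed the minimum through OVX_E2 alone, such as Cenpu and Rad51ap1, at 0 CPM in OVX. No count with a minimum in OVX was made for this list. Without the clusters that held markers of both luminal lineages, cycle-led clusters included, the sums were 1.08-fold and 1.35-fold those of OVX, with 5 S-phase and 10 G2/M members past 2-fold. The share over all genes was not computed beside these counts. With the cycle-led clusters kept and the other such clusters left out, the sums were 2.04-fold and 2.69-fold. In OVX 0 barcodes lay in a cluster with alveolar luminal markers alone, against 156 in OVX_E2. Both alternatives thus took every luminal cluster with alveolar markers out of OVX but not out of OVX_E2, and compared unlike mixes of lineages.

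The helicase subunits Mcm2 to Mcm7, which unwind DNA at the fork, did not all behave alike in the epithelium. Mcm6 was at 3.19, 18.4, 7.81, 9.87 and 8.99 CPM, a ratio of OVX_E2 to OVX of 5.78 (3.56 to 10.0). Mcm5 was at 2.25, 12.5, 4.13, 5.88 and 4.26 CPM, a ratio of 5.56 (3.13 to 10.9). For both genes OVX_E2 was highest and OVX lowest, with the PBDE libraries below the libraries with the same hormones. Mcm2 and Mcm3 had ratios of 4.06 (2.21 to 8.27) and 3.34 (1.90 to 6.39). Mcm7, at 11.8, 17.3, 11.3, 13.7 and 11.2 CPM, was 1.46-fold higher in OVX_E2 (1.12 to 1.94). Mcm4 was at 9.0 and 9.14 CPM in OVX and OVX_E2, a ratio of 1.02 (0.738 to 1.42). The 6 subunits together stood at 30.7 CPM in OVX and 73.8 CPM in OVX_E2.

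Of the genes that load and fire origins, Cdc6 and Cdc45 had few UMIs in OVX. Gins2, a subunit of the complex that activates the helicase, was at 11.1, 22.7, 13.6, 16.4 and 14.8 CPM, 2.06-fold higher in OVX_E2 than in OVX (1.57 to 2.74). Cdc45, its partner, had 2 UMIs in OVX and 51 in OVX_E2, a ratio of 6.18 (1.63 to 52.4). Cdc6, which loads the helicase before S phase, was the S-phase member with the smallest ratio, at 2.44 CPM in OVX and 1.86 CPM in OVX_E2 (ratio 0.765, 0.402 to 1.56), and the only one highest in OVX. At the fork itself, Pcna, the sliding clamp of the polymerases, was at 36.4, 41.9, 26.6, 40.5 and 29.7 CPM, so OVX and OVX_E2 differed by a ratio of 1.15 whose interval included 1 (0.985 to 1.35). Both PBDE libraries had less Pcna than OVX in CPM, but after TMM scaling, used as an alternative below, only OVX_E2_PBDE did. Tipin, which protects stalled forks, was at 19.1, 40.1, 19.0, 23.1 and 20.2 CPM, high in OVX_E2 and close together elsewhere. Fen1, the flap endonuclease, had a ratio of 1.40 (0.935 to 2.18).

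The enzymes that supply nucleotides were higher in OVX_E2 as a group, at 37.9 CPM in OVX and 108 CPM in OVX_E2 (ratio 2.86, 2.48 to 3.32). Rrm2, the cell-cycle regulated subunit of ribonucleotide reductase, was at 2.44, 17.4, 5.20, 12.5 and 4.66 CPM, a ratio of 7.13 (4.12 to 13.5). Its partner Rrm1 had a ratio of 2.29 (1.52 to 3.57). Dut, which removes dUTP, was at 25.3, 61.6, 33.0, 42.1 and 34.1 CPM, 2.43-fold higher in OVX_E2 (2.04 to 2.92). Tyms, thymidylate synthase, was 3.48-fold higher (2.37 to 5.31). Uhrf1, which carries DNA methylation through replication, had the largest ratio of all members, 27.6 (7.57 to 230), on 2 UMIs in OVX and 228 in OVX_E2, and Hells was 12.4-fold higher (5.97 to 31.2). Slbp, which binds histone mRNA, was at 45.9, 53.8, 38.1, 53.3 and 40.7 CPM, 1.17-fold higher in OVX_E2 (1.02 to 1.35). Dut, Slbp and Pcna together made up 56.4% of all S-phase UMIs of the epithelium in OVX and 41.5% in OVX_E2.

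Among G2/M members, the cyclins and Cdk1 were near the limit of detection in OVX. Cdk1 was at 0.937, 14, 3.86, 11.3 and 4.19 CPM, 14.9-fold higher in OVX_E2 than in OVX (6.33 to 46.3). Ccnb2, a B-type cyclin, was 4.87-fold higher (2.95 to 8.62) and Ccna2, cyclin A, 7.03-fold (2.95 to 22.0). Ccnb1 had 1 UMI in OVX and 73 in OVX_E2, a ratio of 17.7 (3.08 to 709). The small kinase partners were more abundant in all libraries. Cks2 was at 15.7, 53.1, 32, 56.4 and 32.3 CPM, 3.37-fold higher in OVX_E2 (2.70 to 4.26). Cks1b was at 63.0, 96.7, 64.1, 82.8 and 65.7 CPM, 1.54-fold higher (1.37 to 1.73). Of the partners of the anaphase promoting complex, Ube2c was at 5.44, 31.1, 12.8, 28.0 and 12.3 CPM, 5.72-fold higher (3.95 to 8.61), and Cdc20 was 2.20-fold higher (1.24 to 4.26).

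Mitotic kinases and checkpoint genes, summed together with Birc5, stood at 7.87 CPM in OVX and 54.4 CPM in OVX_E2 (ratio 6.91, 5.08 to 9.64). Most of that OVX_E2 level was RNA of Birc5, which is not a kinase. Birc5, survivin, a subunit of the chromosomal passenger complex, was at 1.69, 33.0, 9.53, 21.9 and 7.99 CPM, 19.6-fold higher in OVX_E2 (10.2 to 43.0). Aurkb, the kinase of that complex, was 8.0-fold higher (3.05 to 29.8), and Aurka, the kinase of spindle poles, 2.44-fold (1.58 to 3.92). Plk1, Bub1 and Bub1b had too few UMIs in these libraries for a ratio, with 0.187 to 0.750 CPM in OVX and 1.14 to 2.18 CPM in OVX_E2. Of the centromere proteins, Cenpa was 4.4-fold higher (3.12 to 6.41), Cenpf 2.94-fold (2.01 to 4.45), and Cenpe had 1 UMI in OVX and 113 in OVX_E2. The spindle proteins Tpx2, Nusap1, Kif11, Kif23 and Tacc3 stood together at 5.44 CPM in OVX and 26.5 CPM in OVX_E2 (ratio 4.88, 3.36 to 7.36), with single ratios from 3.01 for Kif23 to 14.6 for Tacc3.

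Top2a was at 1.87, 22.2, 8.57, 17.5 and 5.59 CPM, 11.9-fold higher in OVX_E2 than in OVX (6.39 to 24.9). Without the 5 barcodes richest in core genes, OVX had 0 UMIs of Top2a and of Cdk1, so their ratios rest on those barcodes. Without the clusters that held both luminal programs OVX had 0 UMIs of Top2a, Cdk1, Mki67 and Birc5. In OVX that left out all luminal clusters with alveolar markers. Mki67 was at 1.87, 8.91, 4.52, 6.99 and 3.26 CPM, 4.75-fold higher (2.53 to 10.1). Hmgb2, a chromatin protein also made by resting cells, was at 174, 251, 144, 210 and 149 CPM, 1.44-fold higher (1.35 to 1.55), and its ratio was 0.931 without the clusters holding both luminal programs, cycle-led ones included, and 1.73 with the cycle-led ones kept. Unlike Top2a and Mki67, Hmgb2 had a higher CPM in OVX than in either PBDE library. After TMM scaling, used as an alternative below, Hmgb2 was instead lower in OVX than in both. Stmn1, which destabilizes microtubules, was at 24.6, 140, 54.3, 116 and 59.7 CPM, 5.69-fold higher in OVX_E2 (4.78 to 6.83). Tubb4b, a tubulin of many cell types and also of cilia, was at 156, 127, 124, 146 and 121 CPM and was the G2/M member with the smallest ratio, 0.815 (0.754 to 0.881). Hmgb2, Stmn1 and Tubb4b together made up 74.6% of the epithelial G2/M UMIs in OVX and 57.3% in OVX_E2, so the sum over all 27 genes rests mainly on them. Reads of genes with close relatives or pseudogenes, such as tubulins, Hmgb2, Cks1b and Dut, may have been split or lost when UMIs were counted.

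**Figure D2:**
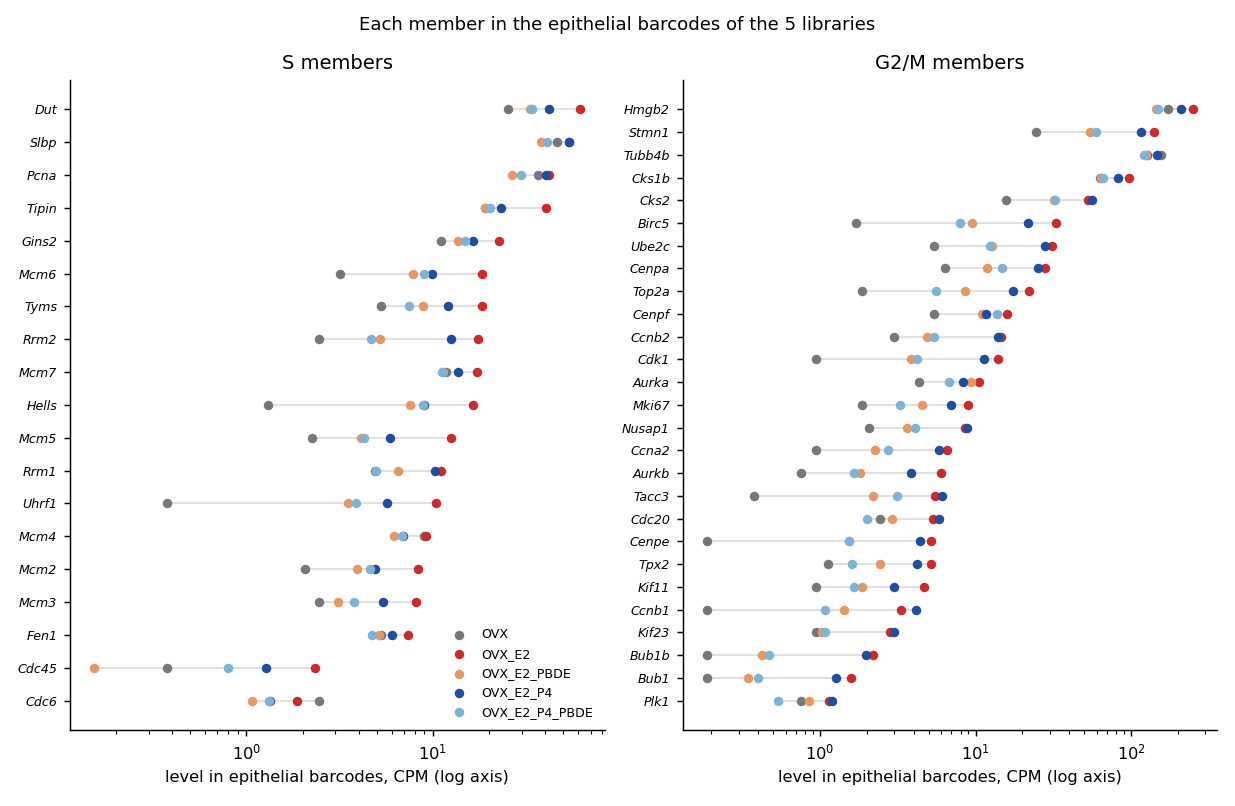
Level of each of the 46 genes in epithelial barcodes, in CPM on a log axis, with S-phase genes on the left and G2/M genes on the right, ordered by their level in OVX_E2; each point is 1 library, without error bars, and a grey line joins the lowest and the highest library. OVX is lowest for 11 of 19 S-phase and 23 of 27 G2/M genes. OVX_E2 is highest for 18 and 19 of them, and Tubb4b and Cdc6 are highest in OVX, Tubb4b not after TMM scaling. Such counts over all genes were not computed.

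Over the 5 libraries, 18 of 19 S-phase members had their highest epithelial level in OVX_E2. Of the G2/M members, 19 of 27 were highest in OVX_E2 and 7 in OVX_E2_P4, namely Ccnb1, Cdc20, Plk1, Nusap1, Kif23, Tacc3 and Cks2. The lowest level was in OVX for 23 G2/M members but for 11 S-phase members, and 6 S-phase members were lowest in OVX_E2_PBDE. The same counts over all genes were not computed. The epithelial class of OVX held 5334552 UMIs, against 15021176 to 26133529 in the other libraries, so its levels of genes with few UMIs were the least certain.

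The second comparison asked what progesterone added to estradiol. The 4 comparisons share libraries, so they are not independent of each other. Epithelial S-phase RNA in OVX_E2_P4 was 0.740 times that in OVX_E2 (0.717 to 0.763) and G2/M RNA 0.895 times (0.878 to 0.913). The epithelial classes were unlike mixes. Clusters with alveolar luminal markers alone held 29.5% of epithelial barcodes in OVX_E2_P4 and 13.1% in OVX_E2. Cycle-led clusters held 4.35% and 8.79%, and the other clusters with both luminal programs 20.8% and 31.2%. How far the mix entered these ratios was not tested. Of the 19 S-phase members 0 were more than 2-fold higher and 1 more than 2-fold lower, and of 27 G2/M members 0 were past 2-fold in either direction, beside 0.808% higher and 0.816% lower over all 12248 genes. All 19 S-phase ratios were below 1, with a median log2 ratio of −0.55, whereas 8 G2/M ratios were above 1 and 19 below, with a median of −0.22, against −0.09 over all genes. Most genes thus also had ratios below 1, and their share was not computed. The gene past 2-fold was Mcm5, with a ratio of 0.470 (0.383 to 0.575). Mcm6, Hells, Uhrf1 and Cdc45 followed at 0.536 to 0.548. Pcna and Slbp were at ratios of 0.968 (0.885 to 1.06) and 0.992 (0.917 to 1.07). Among G2/M members the largest ratio was that of Ccnb1, 1.25 (0.920 to 1.71), Tubb4b was at 1.15 (1.09 to 1.21), and Birc5 at 0.663 (0.593 to 0.741) and Aurkb at 0.640 (0.489 to 0.836) were among the lowest. Top2a, Mki67 and Cdk1 lay at 0.789, 0.784 and 0.804.

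The third comparison set the library with estradiol and PBDEs against estradiol alone. S-phase RNA of the epithelium was 0.540 times (0.522 to 0.559) and G2/M RNA 0.573 times (0.561 to 0.586) that of OVX_E2, and core G2/M genes were at 0.420 (0.400 to 0.440). In this comparison 10 of 19 S-phase and 17 of 25 G2/M members were more than 2-fold lower and 0 were more than 2-fold higher, beside 1.83% lower and 0.460% higher over all 12162 genes. Members with few UMIs in OVX_E2_PBDE could pass the minimum of 50 UMIs through OVX_E2 alone. Of the 11 members with at least 50 epithelial UMIs in every library, 1 of 6 S-phase (Tipin) and 1 of 5 G2/M members (Stmn1) were past 2-fold. The share over all genes with that minimum was not computed. The medians were −1.05 and −1.28 on the log2 scale, against −0.13 over all genes. Over all genes with a UMI in both libraries the log2 quartiles were −0.29 and 0.04, so most genes also had ratios below 1. All 44 member ratios were below 1. Cdc45 had the smallest, 0.066 (0.0173 to 0.180), on 4 UMIs in OVX_E2_PBDE against 51. Bub1b was at 0.193 (0.0903 to 0.377), Cdk1 at 0.276 (0.218 to 0.347) and Birc5 at 0.289 (0.249 to 0.334). Rrm2 and Aurkb were both at 0.30, and Top2a was at 0.386 (0.328 to 0.453), Stmn1 at 0.389 (0.365 to 0.414) and Mki67 at 0.507 (0.400 to 0.640). At the other end stood Tubb4b at 0.977 (0.929 to 1.03), Aurka at 0.889 (0.740 to 1.07), Slbp at 0.708 (0.650 to 0.771), Fen1 at 0.701 and Cenpf at 0.691.

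With progesterone present the PBDE library differed mainly in G2/M genes. Against OVX_E2_P4, OVX_E2_P4_PBDE had 0.770 times the S-phase RNA (0.738 to 0.802) and 0.647 times the G2/M RNA (0.631 to 0.664), and core G2/M genes were at 0.483 (0.454 to 0.512) and core S-phase genes at 0.777 (0.727 to 0.830). On the wider lists the ratios were nearer to 1, at 0.879 (0.846 to 0.914) for S-phase and 0.770 (0.756 to 0.784) for G2/M genes. Of 18 S-phase members 2 were more than 2-fold lower, Rrm2 at 0.372 (0.283 to 0.483) and Rrm1 at 0.477 (0.364 to 0.619), both subunits of ribonucleotide reductase. Of 25 G2/M members 15 were more than 2-fold lower, and 0 members of either list were more than 2-fold higher, beside 1.54% lower and 0.920% higher over all 11954 genes. Here too, members with few UMIs in the PBDE library could pass the minimum through OVX_E2_P4 alone. Of the 11 members with at least 50 epithelial UMIs in every library, 0 were past 2-fold in this comparison. The median log2 ratio was −0.32 for S-phase and −1.11 for G2/M members, against −0.05 over all genes. Bub1b had the smallest ratio, 0.238 (0.0911 to 0.527), and Ccnb1, Top2a, Cdc20 and Birc5 were at 0.257, 0.319, 0.344 and 0.365. Mcm2, Mcm4, Mcm6, Cdc6, Gins2 and Hells had ratios of 0.901 to 0.994, and Cenpf had the largest, 1.19 (0.989 to 1.42). Both PBDE comparisons depended on which epithelial clusters were kept. Without the clusters that held both luminal programs, cycle-led ones included, the S-phase and G2/M ratios were 0.829 and 0.918 for OVX_E2_PBDE and 1.04 and 1.15 for OVX_E2_P4_PBDE. In this clustering, made without cell-cycle genes, clusters led by cycle genes formed in OVX_E2 (105 barcodes) and OVX_E2_P4 (87 barcodes), whereas with cell-cycle genes kept they also formed in OVX_E2_PBDE (37 barcodes) and OVX_E2_P4_PBDE (40 barcodes), beside 132 and 107 barcodes in the libraries without PBDE. With the cycle-led clusters of the first clustering kept and the other such clusters left out, the ratios were 0.438 and 0.460, and 0.704 and 0.627. The clusters left out held 26 of 77 core-positive barcodes (defined below) in OVX_E2_PBDE and 38 of 91 in OVX_E2_P4_PBDE. In OVX_E2 they held 16 of 139 and in OVX_E2_P4 12 of 170. These ratios therefore compared unlike parts of the epithelium and cannot show whether the direction held.

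**Figure D3:**
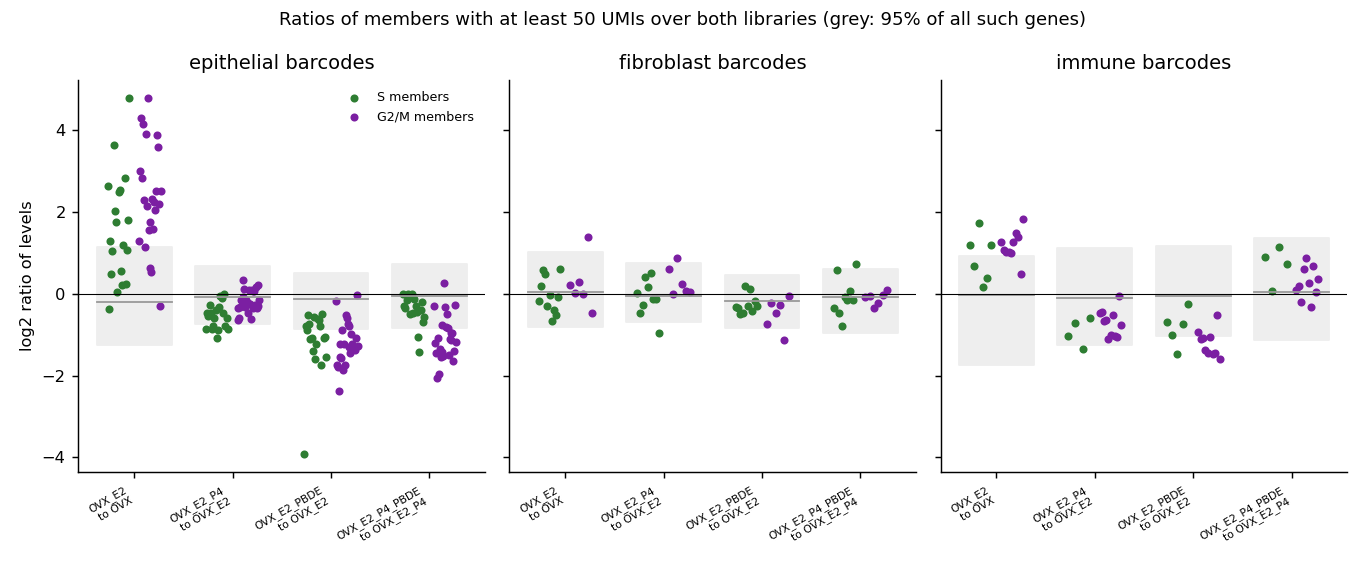
Log2 ratio of each member that reached 50 UMIs in the compared libraries, for the 4 comparisons in epithelial (left), fibroblast (middle) and immune (right) barcodes; each point is 1 gene, green for S-phase and purple for G2/M members, the grey boxes hold 95% of all such genes with a UMI in both libraries and the grey lines are the medians over all such genes. In the epithelium the S-phase and G2/M medians are 1.27 and 2.11 in OVX_E2 against OVX, and −0.32 and −1.11 in OVX_E2_P4_PBDE against OVX_E2_P4.

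Luminal and basal-like barcodes were also summed apart. Luminal core G2/M genes were at 44.4, 226, 96.5, 182 and 90.1 CPM, 5.09-fold higher in OVX_E2 than in OVX (4.45 to 5.86). In basal-like barcodes, 59 to 148 per library, the same genes had 3 UMIs in OVX (7.51 CPM, 1.55 to 22.0) and were at 334, 104, 361 and 130 CPM in the other libraries. The basal-like ratio of OVX_E2 to OVX was 44.5 (15.1 to 217), a value set by those 3 UMIs. Core S-phase genes of basal-like barcodes were at 108, 192, 112, 161 and 115 CPM, a ratio of 1.78 (1.27 to 2.55), and of luminal barcodes at 55.3, 169, 79.9, 108 and 84.1 CPM, a ratio of 3.06 (2.71 to 3.48). Basal-like core G2/M genes in the PBDE libraries were 0.312 times (0.254 to 0.381) those in OVX_E2 and 0.360 times (0.294 to 0.438) those in OVX_E2_P4, and luminal ones 0.427 and 0.496 times. The basal-like clusters of OVX_E2_PBDE and OVX_E2_P4_PBDE also scored higher for luminal markers. Their alveolar marker scores were 0.212 and 0.210, against 0.0252 in OVX_E2 and 0.0586 in OVX_E2_P4. Their hormone-sensing marker scores were 0.159 and 0.167, against 0.0590 and 0.0734. How far luminal RNA entered the basal-like ratios was not tested. With progesterone added to estradiol the basal-like core G2/M ratio was 1.08 (0.942 to 1.24) and the luminal ratio 0.804 (0.771 to 0.837). Differences between the lineages in these ratios were not tested.

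To count barcodes, each was thinned at random to 3000 UMIs, so that depth was equal, and called core positive with at least 2 UMIs of core S-phase or of core G2/M genes. In the epithelium the share of such barcodes was 3.47% in OVX (1.80 to 5.98, 12 of 346), 11.6% in OVX_E2 (9.88 to 13.6, 139 of 1194), 5.43% in OVX_E2_PBDE (4.31 to 6.75, 77 of 1417), 8.49% in OVX_E2_P4 (7.31 to 9.80, 170 of 2002) and 6.92% in OVX_E2_P4_PBDE (5.61 to 8.43, 91 of 1315). Without thinning the shares were 23.1%, 42.5%, 32%, 28.9% and 23.5%, at median depths of 11311.5, 13508, 13855, 10276 and 7605 UMIs. Barcodes positive for both lists at once were 0 of 346 in OVX, which allows a share of up to 0.867%, then 2.85%, 0.635%, 1.70% and 0.532%. In fibroblasts 0.897%, 1.6%, 0.990%, 1.58% and 1.13% were core positive, at median depths of 4252 to 7032 UMIs. All 5 epithelial shares were above these fibroblast shares, which include free RNA. In the immune class the shares were 14.7%, 37.0%, 19.7%, 25.4% and 37.2%, on 54 to 163 barcodes.

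**Figure D4:**
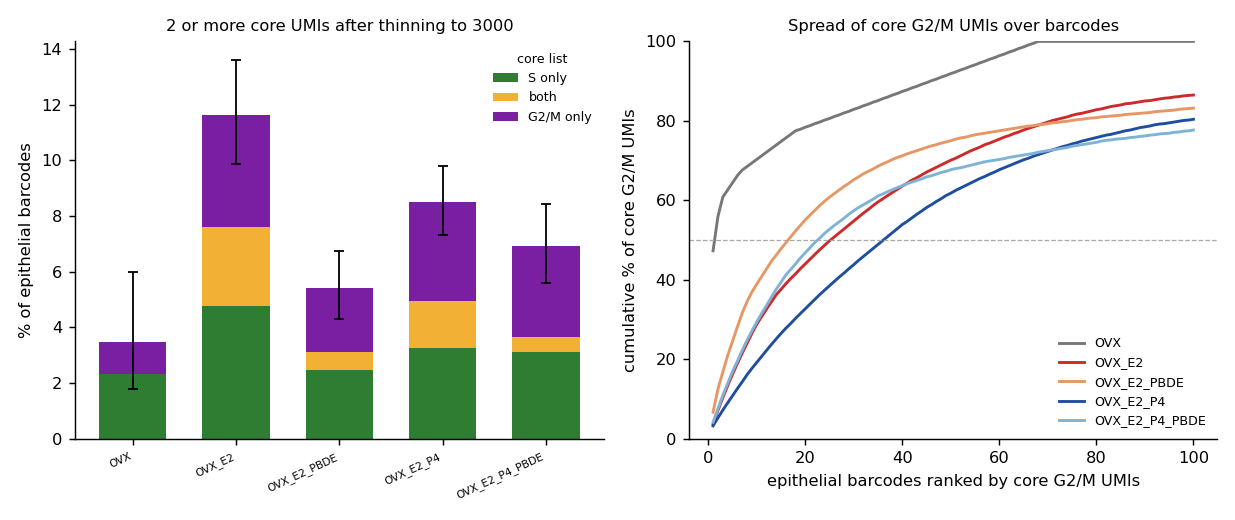
Left, percent of epithelial barcodes with at least 2 core UMIs after thinning to 3000 UMIs, stacked by positivity for S-phase genes only, both lists or G2/M genes only, with exact 95% Clopper-Pearson intervals of the total; right, cumulative percent of core G2/M UMIs over epithelial barcodes ranked by these UMIs, 1 line per library, with a dashed line at 50%. The totals run from 3.47% in OVX to 11.6% in OVX_E2, and the OVX line reaches 50% within 2 barcodes whereas OVX_E2_P4 needs 37.

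Core-positive epithelial barcodes held more RNA than the others. Their median was 19483, 21322, 19069, 15864.5 and 10985 UMIs before thinning, against 11196, 12605, 13554.5, 10033 and 7360 UMIs in the rest. Markers of the alveolar luminal lineage made up 43.8%, 39.7%, 64.0% and 40.3% of their luminal marker UMIs in the 4 libraries with estradiol, against 23.9%, 32.3%, 48.9% and 28.3% in the rest, and in OVX, with 12 positive barcodes, 36.4% against 48.8%. The cycle-led clusters of OVX_E2 and OVX_E2_P4 held 76 of the 139 and 81 of the 170 core-positive barcodes of those libraries. The part of droplets with more than 1 cell in these values was not tested.

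A few barcodes carried much of the core G2/M RNA. Of the epithelial UMIs of these genes, 50% lay in 2 of 346 barcodes in OVX, 26 of 1194 in OVX_E2, 17 of 1417 in OVX_E2_PBDE, 37 of 2002 in OVX_E2_P4 and 23 of 1315 in OVX_E2_P4_PBDE. For core S-phase genes it took 49, 72, 102, 103 and 95 barcodes. Without the 5 richest barcodes of each library the epithelial core G2/M level was 15.3, 197, 73.6, 172 and 77.6 CPM, which left the order of the libraries unchanged except that OVX_E2_P4_PBDE stood above OVX_E2_PBDE. The OVX level of 41.6 CPM therefore rested largely on those 5 barcodes, which held 64.4% of its UMIs.

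The members differed in how far their RNA was confined to core-positive barcodes, which were 7.14% to 7.79% of the thinned epithelial barcodes when the gene in question was left out of the choice. Birc5 was the most concentrated, with 87.1% of its UMIs there (81.9 to 91.3), followed by Kif23 and Ccna2 at 83.3% and Nusap1 at 82.7%. Top2a (82.2%), Cdk1 (81.4%) and Mki67 (71.2%) were close to them. The S-phase genes were more dispersed, from Rrm2 at 64.0% (55.8 to 71.7) to Cdc6 at 9.09% (1.12 to 29.2, on 22 UMIs), near the share of the barcodes themselves. Tubb4b (10.8%, 9.66 to 12.1), Aurka (14.3%, 9.78 to 19.9) and Slbp (15.3%, 13.0 to 17.9) were the other members at the low end. Pcna had 20.4%, Hmgb2 33.1% and Stmn1 58.2% of their UMIs in core-positive barcodes. These percents pool libraries with different shares of core-positive barcodes. Within libraries, Birc5 had 91.1%, 87.9%, 81.0% and 94.4% in OVX_E2, OVX_E2_PBDE, OVX_E2_P4 and OVX_E2_P4_PBDE, Stmn1 24.3%, 60.2%, 51.7%, 59.8% and 62.2% over the 5 libraries, and Tubb4b 6.11%, 12.4%, 7.75%, 13.8% and 9.02%.

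**Figure D5:**
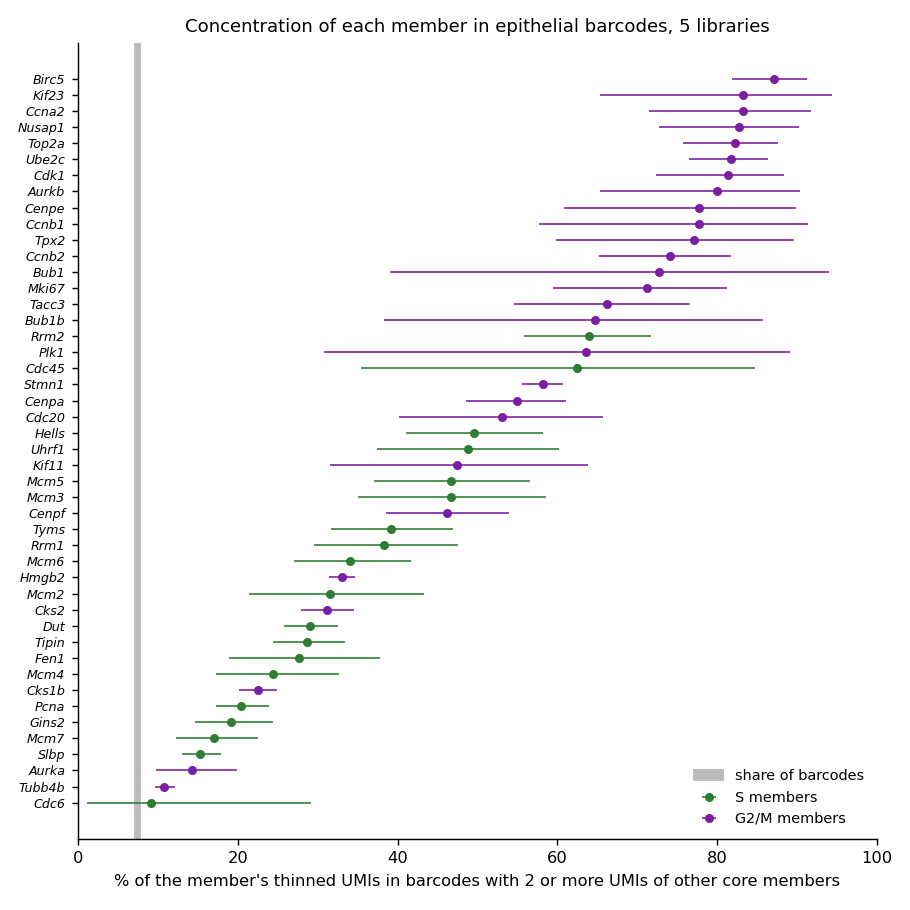
Percent of the epithelial UMIs of each member that lay in core-positive barcodes, chosen without that member, over the 5 libraries after thinning to 3000 UMIs; points are genes, green for S-phase and purple for G2/M, bars are exact 95% Clopper-Pearson intervals, and the grey band is the share of barcodes that were core positive. Birc5 (87.1%) and Top2a (82.2%) lie near the top, and Tubb4b (10.8%) and Cdc6 (9.09%) at the bottom, near the band.

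Barcodes were then split into those positive for core S-phase genes only, core G2/M genes only, both or neither, again without the gene in question. Ube2c was at 6.41 CPM in S-only barcodes, 224 in barcodes positive for both, 261 in G2/M-only barcodes and 2.65 in the rest. Cenpa followed the same order, at 14.2, 107, 195 and 6.67 CPM. Both genes were low in S-only barcodes and high where G2/M genes were detected. S-only barcodes had by definition fewer than 2 UMIs of the other core G2/M genes, so this order follows in part from the split. Top2a, at 28.2, 234, 123 and 1.78 CPM, and Birc5, at 25, 320, 174 and 1.61 CPM, were instead highest where both lists were detected. So were Hmgb2, at 319, 1278, 888 and 122 CPM, and Stmn1, at 241, 1190, 645 and 34.6 CPM. Rrm2, at 37.8, 215, 42.9 and 3.11 CPM, had the same shape among S-phase genes. Pcna, at 82.5, 135, 63.7 and 27.6 CPM, and Slbp, at 84.1, 183, 65.3 and 43.6 CPM, had it too. Barcodes positive for both lists needed at least 2 UMIs of each, so they were chosen as rich in core genes. A peak there therefore follows in part from the split and does not set these genes apart. Gins2, by contrast, was at 55.2, 47.6, 21 and 12.5 CPM and Hells at 68.5, 78.9, 24.2 and 4.07 CPM, lower in G2/M-only than in S-only barcodes. The split also favours that order, since G2/M-only barcodes were chosen as poor in the other core S-phase genes. Tubb4b, at 139, 222, 240 and 135 CPM, varied less than these genes.

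The balance between the core lists differed between libraries and classes. In the epithelium core S-phase UMIs were 1.42 times core G2/M UMIs in OVX (1.20 to 1.70), 0.739 times in OVX_E2 (0.708 to 0.771), 0.842 in OVX_E2_PBDE (0.795 to 0.892), 0.577 in OVX_E2_P4 (0.551 to 0.605) and 0.930 in OVX_E2_P4_PBDE (0.861 to 1.00). OVX_E2_P4 was the lowest, and both PBDE libraries were above the library with the same hormones. Without the 5 richest barcodes for each list the epithelial ratios were 3.54 (2.75 to 4.61), 0.817, 1.00, 0.586 and 1.03, so the size of the OVX ratio rested on those barcodes while the order of these libraries remained. In fibroblasts the ratios were 4.12, 2.61, 3.76, 1.96 and 1.31, and in immune barcodes 0.543, 0.426, 0.543, 0.378 and 0.477. Without those barcodes the fibroblast ratio of OVX_E2_P4_PBDE was 2.43 (1.79 to 3.33) rather than 1.31. The immune intervals of OVX_E2 (0.357 to 0.506) and OVX_E2_P4 (0.313 to 0.454) overlapped, and without the richest barcodes the order of these libraries turned, at 0.371 and 0.383.

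In fibroblasts Dut, Slbp and Pcna made up 52.6% to 61.5% of the S-phase UMIs and Stmn1, Hmgb2 and Tubb4b 51.0% to 58.1% of the G2/M UMIs. Dut, Tipin, Slbp, Pcna, Cks1b, Tubb4b and Hmgb2 were each above 20 CPM in all 5 libraries, whereas Cdk1, Mki67, Plk1, Bub1 and Aurkb stayed at or below 2.00 CPM. Zero UMIs were counted for Cdk1 and Bub1 in OVX, which allows up to 0.218 CPM, for Kif11 in OVX_E2_P4 (up to 0.533 CPM), and for Bub1 and Kif11 in OVX_E2_P4_PBDE (up to 0.750 CPM). In OVX_E2 against OVX, 0 of 11 S-phase and 1 of 6 G2/M members with enough UMIs were more than 2-fold higher and 0 more than 2-fold lower, beside 2.57% and 1.6% of 10458 genes. The 1 gene was Stmn1, at 6.11, 15.9, 7.24, 16.5 and 16.2 CPM, with a ratio of 2.60 (1.94 to 3.51). Both the epithelial level of Stmn1 and the share of Krt18 found in fibroblasts (1.77% and 4.51%) were higher in OVX_E2 than in OVX. How far free RNA entered the Stmn1 ratio was not tested. Pcna had the smallest ratio, 0.634 (0.532 to 0.751), at 41.9, 26.6, 21.6, 29.5 and 28.0 CPM, and Slbp was at 0.697 (0.613 to 0.791), so 2 S-phase genes of wide use were lower in fibroblasts of OVX_E2 than of OVX. Core G2/M genes of fibroblasts were at 10.3, 19.2, 10.7, 25.6 and 31.2 CPM, which is 24.8%, 8.33%, 11%, 13.3% and 33.7% of their epithelial level, beside 1.77%, 4.51%, 3.38%, 8.53% and 6.71% for Krt18. The core G2/M ratio of OVX_E2 to OVX was 1.86 (1.45 to 2.38), or 1.90 (1.46 to 2.46) without the 5 richest barcodes. Only 1 core G2/M gene reached 50 UMIs in that comparison, and how far free RNA entered this ratio was not tested. In OVX_E2_P4_PBDE 4 fibroblast barcodes held 50% of these UMIs, and without the 5 richest barcodes its level was 15.4 CPM.

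In the other fibroblast comparisons few members were past 2-fold. In OVX_E2_P4 against OVX_E2, 0 of 9 S-phase and 0 of 6 G2/M members were past it in either direction, beside 1.22% higher and 0.477% lower over all genes, with extremes of 1.82 for Cks2 (1.22 to 2.73) and 0.510 for Tyms (0.315 to 0.806). In OVX_E2_PBDE against OVX_E2, 0 of 10 S-phase and 1 of 6 G2/M members were more than 2-fold lower and 0 higher, beside 1.12% lower and 0.278% higher, the gene being Stmn1 at 0.455 (0.344 to 0.603), while Mcm7 was highest at 1.13 (0.779 to 1.67). The part of free RNA in this Stmn1 ratio was not tested either. In OVX_E2_P4_PBDE against OVX_E2_P4, 0 of 9 and 0 of 6 members were past 2-fold, beside 2.16% lower and 0.528% higher, with Tyms highest at 1.66 (0.971 to 2.85) and Mcm7 lowest at 0.581 (0.321 to 1.01).

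The immune class was small, with 163, 54, 117, 118 and 78 barcodes, and its cycle genes came from few of them. In OVX_E2 against OVX, 3 of 6 S-phase and 9 of 10 G2/M members were more than 2-fold higher and 0 lower, beside 2.02% higher and 9.36% lower over 3162 genes. Hmgb2 was at 567, 1360, 499, 672 and 805 CPM, a ratio of 2.40 (2.13 to 2.70). Stmn1 was at 236, 657, 239, 324 and 258 CPM, a ratio of 2.79 (2.33 to 3.33). Ube2c had the largest ratio, 3.54 (2.31 to 5.49), and Slbp the smallest, 1.11 (0.776 to 1.58). For 24 of 27 G2/M members and 11 of 19 S-phase members OVX_E2 had the highest immune level. The same counts over all genes were not computed, and OVX_E2 had the fewest immune barcodes.

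Against OVX_E2, the immune class of OVX_E2_P4 had 2 of 4 S-phase and 4 of 11 G2/M members more than 2-fold lower and 0 higher, beside 4.89% lower and 3.19% higher over all genes, with Rrm2 lowest at 0.394 (0.233 to 0.657) and Tubb4b highest at 0.958 (0.636 to 1.46). The immune class of OVX_E2_PBDE had 2 of 5 S-phase and 8 of 10 G2/M members more than 2-fold lower and 0 higher, beside 3.09% lower and 3.95% higher, with Ube2c lowest at 0.329 (0.217 to 0.495) and Tipin highest at 0.835 (0.484 to 1.47). In OVX_E2_P4_PBDE against OVX_E2_P4, 1 of 4 S-phase members, Rrm2 at 2.20 (1.29 to 3.78), was more than 2-fold higher, 0 were lower, and 0 of 10 G2/M members were past 2-fold, beside 4.56% higher and 3.26% lower, with Stmn1 lowest at 0.799 (0.631 to 1.00). Immune barcodes with at least 1000 CPM of core genes numbered 16, 17, 19, 24 and 20. Their myeloid markers were at 725, 2387, 2848, 882 and 4007 CPM, against 6920, 5737, 5315, 5421 and 5365 CPM in the other immune barcodes, lower in all 5 libraries. Their T or NK markers were at 1130, 1088, 179, 1506 and 658 CPM, against 624, 259, 325, 368 and 278 CPM, higher in each library but OVX_E2_PBDE. How far a different mix of immune cell types between libraries entered the immune ratios was not tested. Plk1 had 0 immune UMIs in OVX, OVX_E2_PBDE and OVX_E2_P4, and Bub1 0 in OVX, which allows up to 3.15 CPM in the first pair of libraries and 4.11 CPM in OVX_E2_P4.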

How the data were processed

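The deposited files hold raw counts of UMIs per gene and barcode, which the authors made with Cell Ranger 2.0.0 and the mm10 build, per the submitters' processing notes. No column of another series was present (0). Counts were used as deposited, 1 library per group, grouped by the labels, with total and median depth given in the report. Barcodes with at least 500 genes, 1000 UMIs and at most 10% mitochondrial UMIs were kept. Each library was clustered with Seurat 5.3.0 in R 4.3.3 (2000 variable genes without the cell-cycle genes, 10 principal components, 20 neighbours, resolution 0.3 for OVX and 0.5 for the others). Clusters were named from marker scores above 0.25, and called led by cycle genes with 3 of them among their top 10 genes. These naming limits were set after the clusters were seen. No doublet was removed in the main results, and Scrublet scores (scanpy 1.11.5) were used in an alternative.

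UMIs were summed per class and given as CPM with exact Poisson intervals, ratios with exact conditional binomial intervals and shares with Clopper-Pearson intervals, at a confidence level of 95%, covering counting error only. A count of 0 is given with the limit of 3 counts. With 1 library per group there was no test, and a gene was called when past 2-fold among genes with 50 UMIs over the libraries compared. For barcode shares, barcodes were thinned to 3000 UMIs and needed 2 core UMIs. Scripts used Python 3.11.15, numpy 2.4.6, scipy 1.17.1, pandas 2.3.3 and matplotlib 3.10.9 and were tested on simulated data. Gene positions came from GENCODE M21 on the same build. The alternatives were other epithelial clusters, Scrublet scores, a 5% mitochondrial limit, TMM scaling (edgeR 4.0.16), cell-cycle genes kept in clustering, a minimum of UMIs per member, and other thresholds for shares.

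The members and gene lists were chosen with earlier results of these data known. Named in full were Pcna, Mki67, Top2a, Cdk1, Birc5, Hmgb2 and Stmn1, the 6 S-phase and 6 G2/M members with the most epithelial UMIs, the extremes of each comparison and class, the 4 most and 4 least concentrated members, and the 3 wider-list genes of each phase with the most epithelial UMIs. Others are named for their role.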

Additional observations from a re-analysis of the deposited data

Results flagged for a closer look

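In 4 comparisons the summed levels pointed in opposite directions in different classes of the same libraries, on 1 library per group, and these differences were not tested. From OVX to OVX_E2 the S-phase ratio was 1.99 in the epithelium and 1.72 in immune barcodes but 0.880 in fibroblasts. Fibroblast core S-phase genes alone had a ratio of 1.18, or 1.15 (1.00 to 1.33) without the 5 richest barcodes, on the same side as the epithelium. From OVX_E2 to OVX_E2_P4 the G2/M ratio was 0.895 in the epithelium and 0.538 in immune barcodes but 1.10 in fibroblasts. Fibroblast core G2/M genes were at 1.33, or 1.15 without the 5 richest barcodes, where the interval included 1. The wider G2/M list of fibroblasts was at 0.878, on the same side as the epithelium. From OVX_E2_P4 to OVX_E2_P4_PBDE the S-phase ratio was 0.770 in the epithelium and 0.895 in fibroblasts but 1.42 in immune barcodes. Immune core S-phase genes were at 1.39 (1.10 to 1.76), or 1.16 (0.846 to 1.58) without the 5 richest barcodes, and the wider S-phase list at 1.13 (0.952 to 1.34). In that last pair of libraries the G2/M ratio was 0.647 in the epithelium and 1.15 in immune barcodes, where core G2/M genes without the 5 richest barcodes were at 0.904 (0.734 to 1.11).

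A cell class that entered none of the comparisons also held G2/M transcripts. In the endothelial-like barcodes of OVX_E2 the core G2/M genes stood at 294 CPM, above the 35.0 CPM of OVX, and 1 of the 44 barcodes held 102 of their 137 UMIs. Without the 5 richest barcodes the level was 31.1 CPM.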

How the results depend on the processing

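Values stand in the order OVX_E2 to OVX, OVX_E2_P4 to OVX_E2, OVX_E2_PBDE to OVX_E2 and OVX_E2_P4_PBDE to OVX_E2_P4 where 4 follow each other. Members called higher or lower here were past 2-fold among those that reached 50 UMIs under the alternative. How many reached it is not given, and shares over all genes were not computed beside these counts. They therefore cannot be set against a background. The direction of the epithelial sums held under all alternatives but 1. Leaving out all clusters with markers of both luminal lineages, which removes the cycle-led clusters that this clustering gave in OVX_E2 and OVX_E2_P4 and in no other library, gave S-phase ratios of 1.08, 0.794, 0.829 and 1.04 and G2/M ratios of 1.35, 0.802, 0.918 and 1.15. The last value of each was reversed. This alternative also took all luminal clusters with alveolar markers out of OVX, whereas 156 barcodes of an alveolar cluster stayed in OVX_E2. Under this alternative 5 S-phase and 10 G2/M members were more than 2-fold higher in OVX_E2 than in OVX, 3 G2/M members lower in OVX_E2_P4, 0 members lower in either PBDE library, 0 S-phase members lower in OVX_E2_P4, and 4 G2/M members higher in OVX_E2_P4_PBDE, while the median G2/M ratios of epithelium to fibroblasts and to immune barcodes were 2.82 and 0.287. Single genes reversed were Hmgb2 in OVX_E2 to OVX (0.931), Birc5 (1.17), Mki67 (1.33) and Top2a (1.11) in OVX_E2_PBDE, and Birc5 (2.19), Cdk1 (1.97), Hmgb2 (1.27), Mki67 (1.44), Stmn1 (1.22) and Top2a (1.36) in OVX_E2_P4_PBDE.

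The 5 alternatives of this paragraph were chosen after seeing the data. The first left out a larger part of the core-positive barcodes in the PBDE libraries than in the libraries with the same hormones. Its PBDE ratios therefore cannot show whether the direction held. Keeping the cycle-led clusters and leaving out the other clusters of both lineages gave G2/M ratios of 2.69, 0.740, 0.460 and 0.627, S-phase ratios of 0.621, 0.438 and 0.704 for the last 3 comparisons, 2 G2/M and 7 S-phase members lower in OVX_E2_P4, and class medians of 3.75 and 0.382 (G2/M) and 1.36 and 0.515 (S-phase). Doing so in the clustering with cell-cycle genes kept, where cycle-led clusters formed in all 4 libraries with estradiol, changed both choices at once and gave G2/M ratios of 2.05, 0.753, 0.526 and 0.765 and S-phase ratios of 0.629 and 0.479 for the middle comparisons, with 2 G2/M and 7 S-phase members lower in OVX_E2_P4, 3 and 1 lower in OVX_E2_P4_PBDE, and class medians of 4.30 and 0.449 (G2/M) and 1.48 and 0.530 (S-phase). Without the 5 barcodes richest in core genes the G2/M ratios were 1.99 and 0.919 for the first comparisons and the class medians 2.88 and 0.422 (G2/M) and 0.471 (S-phase to immune). Leaving out barcode sequences shared by libraries, 80 in all, kept every value within its interval. The 11 members with 50 epithelial UMIs in every library alone gave S-phase ratios of 1.59, 0.797 and 0.597 for the first 3 comparisons, G2/M ratios of 1.54, 0.915, 0.628 and 0.700, class medians of 1.03 and 0.501 (S-phase) and 2.74 and 0.410 (G2/M), 3 S-phase and 2 G2/M members higher in OVX_E2, 1 of each lower in OVX_E2_PBDE, and 0 lower in OVX_E2_P4 and OVX_E2_P4_PBDE.

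Without the 20% highest Scrublet scores the G2/M ratios were 2.23, 0.858 and 0.528 for the first 3 comparisons, the S-phase ratio of OVX_E2_PBDE 0.511, the class medians 3.01 and 0.231 (G2/M) and 0.327 (S-phase to immune), and 2 S-phase members were lower in OVX_E2_P4. TMM scaling gave G2/M ratios of 2.17, 0.951, 0.631 and 0.666, S-phase ratios of 2.26, 0.786 and 0.595, class medians of 2.82 and 0.30 (G2/M) and 1.08 (S-phase to fibroblasts), and 6 S-phase members lower in OVX_E2_PBDE. The epithelial TMM factor was 1.20 in OVX and 0.959 to 1.06 in the other libraries, so this scaling lowered OVX against them. Hmgb2 in OVX was then below both PBDE libraries, Pcna below OVX_E2_P4_PBDE and Tubb4b below OVX_E2_P4. The 23 members with 50 UMIs over the 3 classes together in every library, some with fewer in OVX epithelium, gave G2/M ratios of 1.76 and 0.586 (OVX_E2 and OVX_E2_PBDE), S-phase ratios of 1.77, 0.773 and 0.563, class medians to fibroblasts of 2.96 (G2/M) and 1.11 (S-phase), 7 G2/M and 8 S-phase members higher in OVX_E2, 6 and 5 lower in OVX_E2_PBDE, and 4 G2/M members lower in OVX_E2_P4_PBDE. The 5% mitochondrial limit gave G2/M ratios of 0.877 (OVX_E2_P4) and 0.665 (OVX_E2_P4_PBDE), and cell-cycle genes kept in clustering left 1 S-phase member lower in OVX_E2_P4_PBDE. The cause of these shifts was not tested.

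The epithelial shares in library order were 24.0%, 32.6%, 22.8%, 29.2% and 27.5% with 1 UMI, 0.578%, 7.71%, 2.75%, 5.29% and 3.12% with 3, and 23.1%, 42.5%, 32%, 28.9% and 23.5% without thinning, so OVX was lowest with 3 UMIs and without thinning but not with 1. With 0 UMIs left in OVX, no ratio to OVX could be given for Mki67, Top2a, Cdk1 and Birc5 without the clusters of both lineages, cycle-led ones kept or not, for Cdk1 without the highest Scrublet scores, and for Top2a and Cdk1 without the 5 richest barcodes. Depth limits the genes with few UMIs in OVX, such as Ccnb1 and Cenpe. No paired analysis was possible because each group was 1 library.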

Other observations

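Endothelial-like barcodes numbered 33, 44, 72, 27 and 58 in OVX, OVX_E2, OVX_E2_PBDE, OVX_E2_P4 and OVX_E2_P4_PBDE. Their core S-phase genes stood at 101, 55.8, 71.4, 60.6 and 80.0 CPM and their core G2/M genes at 35.0, 294, 25.4, 11 and 29.6 CPM. The core S-phase value of OVX was the highest but rested on 26 UMIs, and its interval (66.1 to 148 CPM) overlapped those of all other libraries. All 19 S-phase members together were also highest in OVX, at 436 CPM. The wider S-phase list was instead lowest in OVX, at 315 CPM, and highest in OVX_E2_P4, at 419 CPM.

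Of the wider lists, H2afz, a histone variant, had the most epithelial UMIs among G2/M genes, at 374, 756, 392, 564 and 423 CPM. Tubb5, a beta tubulin, stood at 140, 303, 156, 202 and 131 CPM and Hn1 at 160, 190, 152, 164 and 153 CPM. Among S-phase genes, Rfc2, a subunit of the clamp loader, was at 30.7, 42.1, 28.1, 31.8 and 25.4 CPM, and Nasp, a histone chaperone, at 31.9, 32, 25.3, 29.4 and 26.0 CPM. Gins1, a partner of Gins2 in the same complex, was instead highest in OVX_E2_P4_PBDE, at 23.8, 18.3, 25.5, 19.5 and 42 CPM.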
